A study of Mus musculus with 8 samples.

Results

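The cytosolic ribosomal protein genes of the adult mouse retina were compared between *Rbfox2*-/- and control animals. The genes were taken from the series' count table by symbol, as every gene named Rpl, Rps or Rplp followed by a number and at most a letter and a further digit, which gave 81 of 17500 genes. Of these 81, 76 were main copies, 46 of the large and 30 of the small subunit, and 5 were paralogs of a main copy (*Rpl3l*, *Rpl7l1*, *Rpl22l1*, *Rps4l* and *Rps27l*). The symbol rule leaves out core genes that are named otherwise, among them *Rpsa*, *Fau* and *Gnb2l1*.

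Polyadenylated RNA of the whole retina was sequenced from 4 *Rbfox2*-/- and 4 control mice, 1 library per mouse, all 6 months old and on a C57BL/6J background. Values by mouse are given for the controls in the order M833, M894, M896, M898, and for the knockout in the order M893, M901, M902, M909. The labels call the latter group Rbfox2 KD. These mice were homozygous *Rbfox2* fl/fl and carried a tamoxifen-activated Cre recombinase transgene, while the controls were age-matched heterozygous *Rbfox2* fl/+ mice. The labels give tamoxifen with 4 months for all 8 mice. By the paper, 4 months is the time from a short course of tamoxifen to sampling in the knockout, not the length of treatment. The methods describe tamoxifen for the Cre-bearing mice. An effect of tamoxifen or of Cre and an effect of the *Rbfox2* deletion therefore cannot be told apart here. Since whole retina was sampled, fewer cells of a type and less RNA per cell cannot be told apart either.

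Ribosomal proteins join the ribosomal RNAs in the nucleolus to form the large and the small subunit, and each main protein is present once per subunit, apart from the stalk proteins. Their mRNAs belong to the terminal oligopyrimidine (TOP) class, which starts with a C followed by a run of pyrimidines and whose translation is controlled through mTOR. Mammalian genomes hold many processed pseudogenes of these genes, copied from their mRNAs, so that short reads from a ribosomal protein mRNA can match several places.

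Counts on genes came to between 160630226 and 211283591 per library. *Rbfox2*, the targeted gene, lay between 53.6 and 59.4 CPM (counts scaled to a common library size after normalization by the trimmed mean of M-values, TMM) in the *Rbfox2*-/- retinas and between 144 and 157 CPM in the controls, which do not overlap. M901 and M902 stood apart on the first principal component and had *Xist*, the X-inactivation RNA, at 1440 and 1739 CPM, where the other 6 were at 1.71 to 2.22 CPM. The 9 rod markers summed to between 62797 and 70930 CPM, so that the labelled tissue and its markers matched. The 8 surface epithelium markers summed to at most 9.50 CPM in controls and to 99.6 CPM in M909, and the 7 ciliary epithelium markers to 36.8 to 92.1 CPM in controls and 14.6 to 50.6 CPM in *Rbfox2*-/- retinas. M901 and M902 are both *Rbfox2*-/-, so the *Xist* difference lies within that group and no control shares it. Some results are also given without M901 and M902. The part of these differences in the results below was not tested.

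No ribosomal protein gene was called different between the groups, and most were bounded to small differences. The FDR, the p-value adjusted by Benjamini and Hochberg's method, was under 0.05 for 0 members in edgeR's quasi-likelihood test across all 16797 genes tested, against 0.0655% of all genes. At an unadjusted p under 0.05, 0 members were higher in *Rbfox2*-/- retinas (background 6.42%) and 3 were lower (background 6.87%), so that 3.70% of the members were past that threshold in either direction against 13.3% of all genes. DESeq2 gave 1 member at an FDR under 0.05, *Rps4l*, and edgeR's likelihood ratio test and limma-voom gave 0. All 81 members passed the filter on low counts.

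The differences were small and well bounded for most members. The median log2 fold change was 0.012 over the 81 members and 0.0016 over all genes tested, and 48 of the 81 values were above 0. The large subunit had a median of 0.012 and the small subunit of 0.012. This sign is not firm, since scaling to library totals or adding an offset on gene length turned the median of the members to -0.0061 and -0.0079. In edgeR, the 95% interval lay within ±0.2 on the log2 scale for 49 members and within ±0.3 for 66. The standard error had a median of 0.057 and ranged from 0.029 for *Rps15a* to 0.27 for *Rpl3l*. The highest values belonged to *Rpl17* (0.16), *Rps23* (0.13), *Rpl27a* (0.12) and *Rps27a* (0.10), and the intervals of all 4 included 0.

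**Figure D1:**
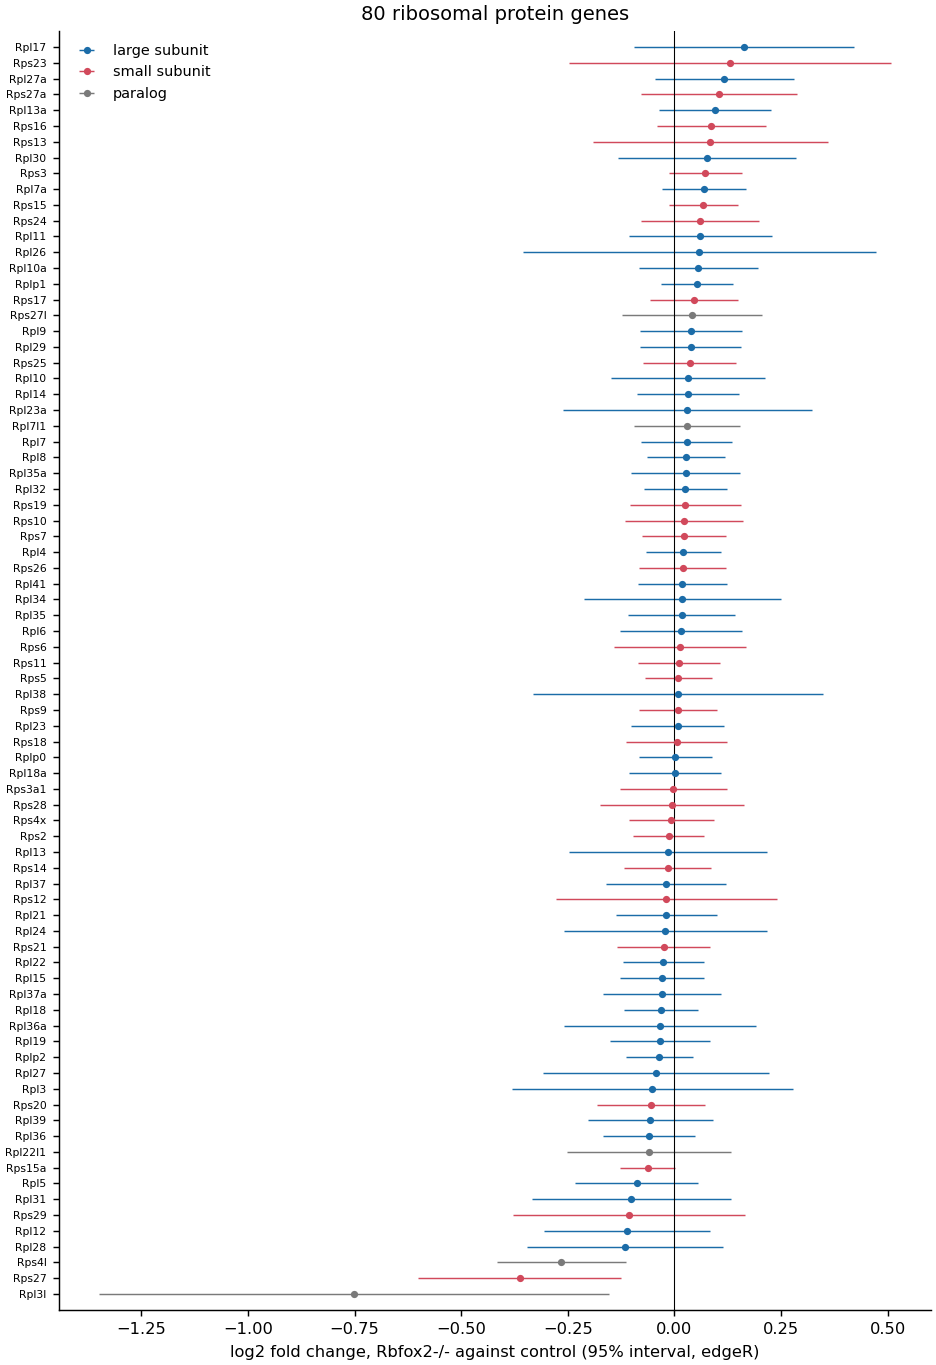
Log2 fold change of 80 of the 81 ribosomal protein genes in *Rbfox2*-/- against control retinas (x axis) with its 95% interval from edgeR, ordered by value and coloured by subunit. Most points lie close to 0, and *Rpl3l*, *Rps27* and *Rps4l* are the 3 whose intervals lie below it.

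*Rps4l*, a paralog of the X-linked small subunit gene *Rps4x*, had the lowest p of the members. The controls had 51.7, 46.3, 52.2 and 52.3 CPM, and the *Rbfox2*-/- retinas had 46.8, 40.2, 38.0 and 43.4 CPM. All but M893 of the *Rbfox2*-/- retinas were below the lowest control, and the groups overlap through M893 and M894. Its log2 fold change was -0.26 (SE 0.068, adjusted p = 0.192 over all genes, edgeR quasi-likelihood test), and without M901 and M902 it was -0.17 (adjusted p = 0.782). The lowest 2 values were those of the libraries with *Xist*.

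*Rps4l* lies at chr6:148354656-148355598 (GRCm38, plus strand), where GENCODE M21 lists it as a transcribed processed pseudogene, inside *Tmtc1* on the opposite strand. *Tmtc1*, a transmembrane protein of the endoplasmic reticulum, had 44.1 ± 3.3 CPM in controls and 41.7 ± 3.0 CPM in *Rbfox2*-/- retinas (SD, n = 4 each). Whether the counting used strand is not given in the sources used here, so reads of both genes may not have been separated. On either strand, no 100-base window of *Rps4l* occurred in a *Tmtc1* transcript of GENCODE M21. The longest open reading frame of *Rps4l* has 789 bases against 792 for *Rps4x*, with 80.1% of aligned bases identical. Their first 120 bases, from the GENCODE M21 transcripts, are shown to let both be told apart, with differing bases in capitals.
Rps4x: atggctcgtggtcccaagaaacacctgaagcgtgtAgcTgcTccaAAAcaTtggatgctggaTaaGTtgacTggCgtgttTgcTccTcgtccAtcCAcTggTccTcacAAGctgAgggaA
Rps4l: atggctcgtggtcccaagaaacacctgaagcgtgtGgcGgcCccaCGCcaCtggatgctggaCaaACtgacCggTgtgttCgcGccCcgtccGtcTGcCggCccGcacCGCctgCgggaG
The differing bases are spread along the frame, and 1.66% of the 100-base windows of the *Rps4l* transcript occurred in another annotated gene.

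*Rps27*, a zinc finger protein of the small subunit, was the only main copy at p under 0.05. It had 1.92, 2.29, 2.31 and 2.40 CPM in controls, and 1.68, 1.66, 1.74 and 1.85 CPM in *Rbfox2*-/- retinas. All 4 *Rbfox2*-/- retinas were below all 4 controls. The difference was -0.36 on the log2 scale (SE 0.11, adjusted p = 0.239, edgeR quasi-likelihood test). These levels rest on 276 to 442 counts per library.

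*Rps27* was also the member with the largest share of sequence found elsewhere. Of the 100-base windows of its transcript (gene at chr3:90212522-90213651, GRCm38, minus strand), 98.4% occurred in 2 other annotated genes, the processed pseudogene *Gm17241* and the protein-coding *Rps27rt*. The deposited accession for *Rps27*, NR_033727, is of the non-coding kind and did not match the GENCODE transcript used here. The values rest on fragments that mapped to 1 place, and how much of them comes from *Rps27* itself was not tested.

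*Rps27l*, the paralog of *Rps27* and a known p53 target, showed no such difference. It had 4.91, 4.79, 5.10 and 5.62 CPM in controls and 5.40, 5.07, 5.18 and 5.38 CPM in *Rbfox2*-/- retinas. The groups overlapped, with a log2 fold change of 0.042 (95% interval -0.12 to 0.21). None of its 100-base windows occurred in another gene. Both genes (*Rps27l* at chr9:66946086-66949516, plus strand) have an open reading frame of 255 bases that align without a gap and differ at 61, in capitals.
Rps27: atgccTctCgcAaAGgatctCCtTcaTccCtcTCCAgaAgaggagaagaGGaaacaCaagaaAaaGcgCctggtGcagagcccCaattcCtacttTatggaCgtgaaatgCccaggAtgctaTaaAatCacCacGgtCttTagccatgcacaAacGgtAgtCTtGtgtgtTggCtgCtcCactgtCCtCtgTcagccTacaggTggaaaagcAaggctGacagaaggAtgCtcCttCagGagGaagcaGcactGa
Rps27l: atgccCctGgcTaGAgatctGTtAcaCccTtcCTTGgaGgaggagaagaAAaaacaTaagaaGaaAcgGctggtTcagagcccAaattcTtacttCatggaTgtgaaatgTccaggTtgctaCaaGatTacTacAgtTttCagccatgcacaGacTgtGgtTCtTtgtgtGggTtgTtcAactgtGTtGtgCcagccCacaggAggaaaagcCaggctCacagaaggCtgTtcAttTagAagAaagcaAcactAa
With 76.1% of bases identical and the differences spread over the whole frame, a read of *Rps27l* can be told from one of *Rps27*.

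*Rpl3l*, the paralog of *Rpl3* that is known from skeletal and heart muscle, was near the limit of detection. It had 0.139, 0.164, 0.099 and 0.152 CPM in controls and 0.091, 0.083, 0.076 and 0.078 CPM in *Rbfox2*-/- retinas, which is 19 to 29 and 12 to 16 counts per library. The groups did not overlap, and the fitted log2 fold change was -0.75 (SE 0.27, adjusted p = 0.289, edgeR quasi-likelihood test). The smallest detectable amount, 3 counts, corresponds to 0.0144 to 0.0189 CPM, for counting error only. The 12 markers of striated muscle summed to 6.01 to 9.51 CPM in controls and 5.55 to 9.88 CPM in *Rbfox2*-/- retinas, so they did not separate the groups.

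*Rps15a*, also of the small subunit, was the third member whose groups did not overlap, at a far smaller difference. It had 89.5, 90.5, 94.4 and 91.3 CPM in controls and 88.7, 87.0, 87.3 and 87.2 CPM in *Rbfox2*-/- retinas. This is -0.063 on the log2 scale (SE 0.029, adjusted p = 0.393, edgeR quasi-likelihood test). Groups that did not overlap were seen for 3 of the 81 members, or 3.70%, against 7.03% of all genes tested.

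**Figure D2:**
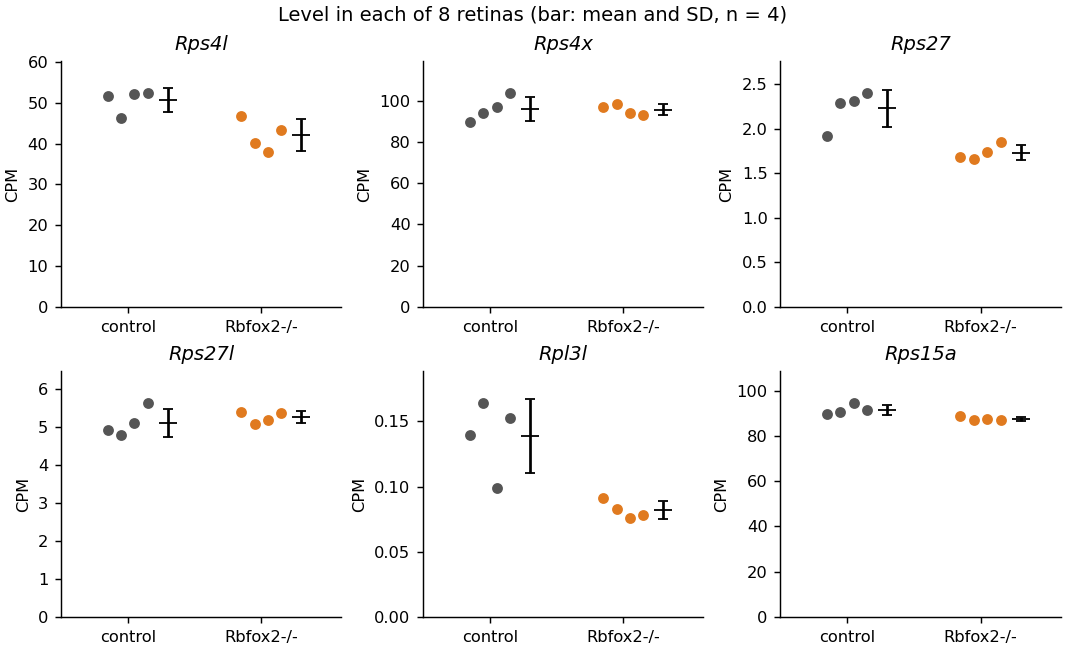
CPM (y axes, from 0) of *Rps4l*, *Rps4x*, *Rps27*, *Rps27l*, *Rpl3l* and *Rps15a* in each of 4 control and 4 *Rbfox2*-/- retinas, with the mean and SD beside the points. The groups separate for *Rps27*, *Rpl3l* and *Rps15a*, and overlap for the other 3.

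Paralogs were then set against their main copies within each retina, as the difference of log2 CPM (0.01 CPM added to each). This gave 6 pairs, since *Rpl36al* is in the table although outside the symbol rule. *Rps27l* to *Rps27* was 1.35, 1.06, 1.14 and 1.23 in controls and 1.68, 1.61, 1.57 and 1.53 in *Rbfox2*-/- retinas, a difference of 0.40. *Rps4l* to *Rps4x* was -0.80, -1.03, -0.90 and -0.99 in controls and -1.05, -1.29, -1.31 and -1.10 in *Rbfox2*-/- retinas, a difference of -0.26. In both pairs no *Rbfox2*-/- retina fell within the control range.

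The smallest two-sided p that an exact permutation test of 4 mice against 4 can give is 0.0286, which both pairs reached (exact permutation test, adjusted p = 0.0857 over 6 pairs). With 2 pairs at that value, the adjusted p stayed above 0.05. Without M901 and M902, the difference for *Rps4l* to *Rps4x* was -0.15 and that for *Rps27l* to *Rps27* was 0.41. The main copy *Rps4x* itself had 96.2 ± 5.9 CPM in controls and 95.8 ± 2.5 CPM in *Rbfox2*-/- retinas (SD, n = 4 each).

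The other 4 pairs overlapped. *Rpl3l* to *Rpl3* differed by -0.61 (exact permutation p = 0.0571), *Rpl36al* to *Rpl36a* by 0.098 (p = 0.4), *Rpl22l1* to *Rpl22* by -0.028 (p = 0.686) and *Rpl7l1* to *Rpl7* by -0.00086 (p = 1). Per length, in FPKM (fragments scaled to gene length and library size) as deposited, *Rpl36al* was at 34.3 and its main copy at 5.6, and *Rps27l* was at 11.2 against 5.73. In these 2 pairs the paralog carried the higher measured level. Of the 100-base windows, 83.6% of those of *Rpl36a* and 59.0% of those of *Rpl36al* were shared with other genes. *Gm49383*, which shares windows with *Rpl36al*, overlaps it on the same strand, so the 59.0% may include windows without another place in the genome.

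The levels of the main copies differed from one another far more than they differed between groups. Mean FPKM over the 8 retinas ranged from 1.26 for *Rpl26* to 616 for *Rplp1*, a stalk protein, which is a ratio of 488. The highest 4 were *Rplp1* at 616, *Rps15* at 366, *Rpl8* at 331 and *Rpl4* at 273 FPKM. The lowest 4 members were *Rpl3l* at 0.081, *Rpl26* at 1.26, *Rpl3* at 1.58 and *Rps23* at 2.03 FPKM. *Rpl3*, at the peptidyl transferase center, and *Rps23*, at the decoding center, are parts of every ribosome.

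Some neighbours in this order overlapped and others did not. *Rplp1* ranged from 593 to 645 FPKM, above every value of *Rps15*, while *Rps15* (339 to 385) and *Rpl8* (309 to 358) overlapped. *Rpl4* ranged from 258 to 291 FPKM, below every value of *Rpl8*. At the lower end, *Rpl26* (0.991 to 1.63), *Rpl3* (1.18 to 1.88) and *Rps23* (1.69 to 2.64) each overlapped the next, and *Rpl3l* lay below all of them. The median was 25.2 FPKM for the large and 68.9 for the small subunit.

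Main copies that shared more of their mRNA with other annotated genes had the lower levels. For each member the share of its transcript's 100-base windows that occur in another annotated gene was counted in GENCODE M21, and among the 76 main copies this share and the mean FPKM had a Spearman correlation of -0.56, given as a description since genes that share windows are not independent points. The 11 main copies under 10% had a median of 133 FPKM, the 32 between 10 and 50% a median of 43.2, and the 33 at 50% and over a median of 8.48. Of the 25 main copies under 10 FPKM, 0 were in the first of these groups, 8 in the next and 17 in the last. With 50-base windows the correlation was -0.42 and with 150-base windows -0.61. The transcript used for the windows did not always have the length behind the FPKM. For *Rps20* it had 3706 bases, with 5.91% of windows shared, against a length of 502, and for *Rplp2* 964 against 441. The groups and the correlations therefore depend on the transcript chosen, and other transcripts were not tried.

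**Figure D3:**
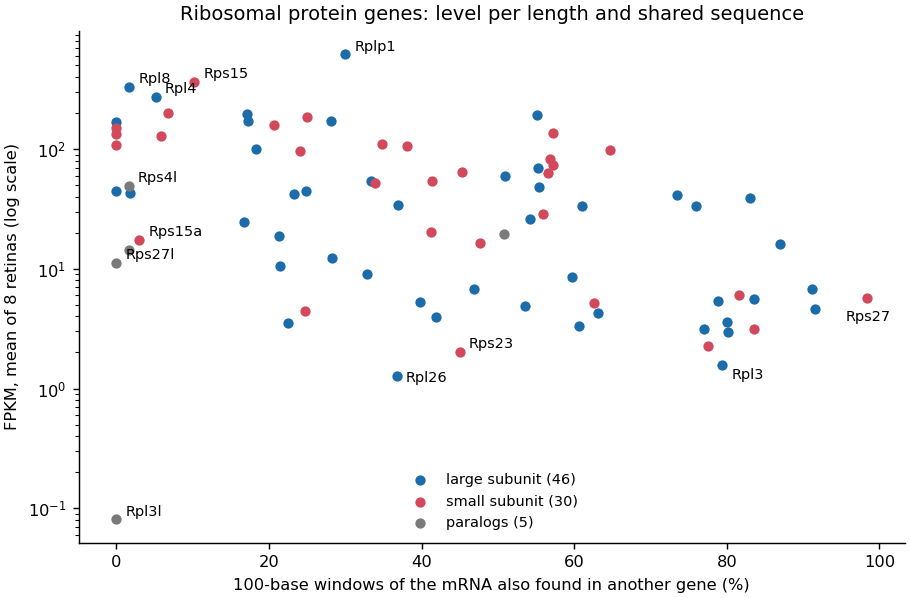
Mean FPKM over 8 retinas (y axis, log scale) against the percentage of 100-base windows of the mRNA that occur in another annotated gene (x axis), 1 point per member. Main copies with few shared windows lie between 17.4 and 331 FPKM, and *Rps27*, with 98.4% shared, lies at 5.73 FPKM. The lowest of the former is *Rps15a*, whose FPKM rests on a length of 5134 bases.

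The study counted uniquely mapped reads, and left out those that matched several places equally well. *Rps12*, of the small subunit, shows such a stretch: this 100-base window of its coding sequence, in lower case throughout since no base is set apart, occurs in 16 other annotated genes.
Rps12: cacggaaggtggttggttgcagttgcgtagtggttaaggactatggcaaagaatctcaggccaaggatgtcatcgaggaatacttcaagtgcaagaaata
A fragment that lay wholly within it could not have mapped to 1 place, and *Rps12*, with 81.7% of its windows shared, was at 5.99 FPKM. *Rpl21* and *Rpl7a* shared windows with 39 and 37 pseudogenes, and lay at 24.3 and 41.4 FPKM. The shared windows also count genes that overlap the member itself, such as *Gm45713*, on the same strand as *Rpl13a*. Such a match may not be another place in the genome. The part of unique mapping in the order of the levels was not tested.

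Spread among the controls was about that of other genes. The coefficient of variation over the 4 controls had a median of 6.13% for the members and 6.51% for all genes tested. It was lowest for *Rps27a* (1.85%), which is made as a fusion with ubiquitin, *Rps15a* (2.32%), *Rpl7a* (2.37%) and *Rplp1* (2.60%). It was highest for *Rpl26* (22.8%), *Rpl3l* (20.3%), *Rpl23a* (16.6%) and *Rps23* (13.8%), all 4 under 4 FPKM.

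A score per retina, the mean over the 76 main copies of log2(CPM + 1) less the control mean, placed the 2 extremes in the control group. It was -0.078 in M833, 0.0031 in M894, 0.0072 in M896 and 0.067 in M898, and 0.0014, 0.016, 0.034 and -0.024 in the *Rbfox2*-/- retinas. All 4 *Rbfox2*-/- retinas lay between M833 and M898. The mean difference was 0.0068, against a control SD of 0.059.

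Both subunits were low and high in the same retinas. The large subunit score was -0.074 in M833 and 0.055 in M898, and the small subunit score -0.083 and 0.086 in the same mice. The difference between the 2 subunit scores was within 0.014 of 0 in every retina but M898 (-0.030) and M909 (-0.037). M833 was the lowest of the 8 libraries for 47 of the 81 members, or 58.0%, and for 11.0% of all genes tested, and M898 was the highest for 39 members, or 48.1%, and for 16.8% of all genes. M833 also had the lowest sum of the 8 retinal ganglion cell markers, 715 CPM, against 901.5 CPM or more in the other 7 libraries. M898 had the highest sums of the Muller glia, pigment epithelium and ciliary epithelium markers, 7779, 251 and 92.1 CPM. The next highest sums of these were 7107, 216 and 66.1 CPM. The part of such marker differences in the scores was not tested.

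**Figure D4:**
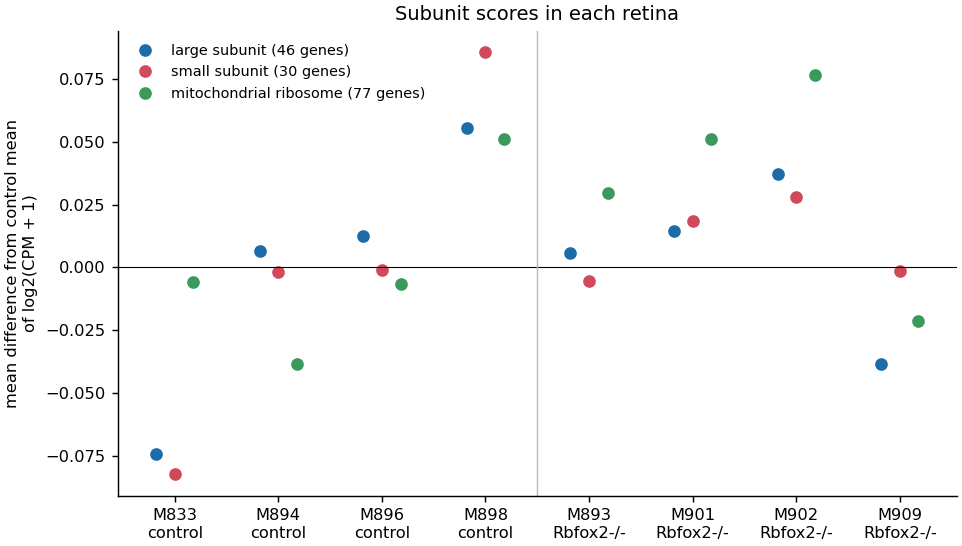
Score of the large subunit, the small subunit and the mitochondrial ribosome (mean difference from the control mean of log2(CPM + 1), y axis) in each retina. Both cytosolic subunits are lowest in M833 and highest in M898, both controls, while the mitochondrial score is highest in M902.

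As a share of all counts, the 81 members took 0.427% ± 0.025 in controls and 0.427% ± 0.0049 in *Rbfox2*-/- retinas (SD, n = 4 each). The control values ran from 0.396% in M833 to 0.458% in M898 and enclosed the *Rbfox2*-/- values of 0.421 to 0.432%. The members were short, with a median length of 703 bases against 2702.5 for all genes tested. The 1510 other tested genes under 1000 bases had a score of -0.016 in M833 and 0.016 in M898, and were highest in M909 at 0.036.

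**Figure D5:**
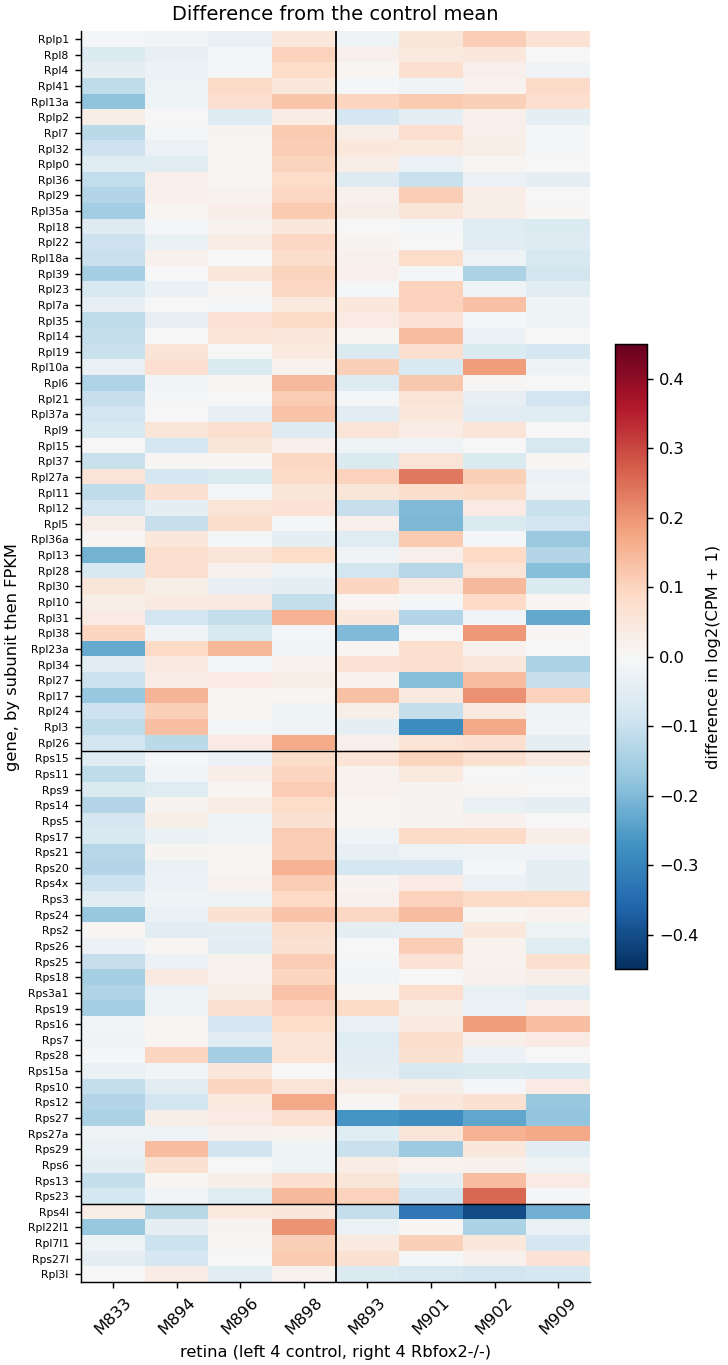
Difference of log2(CPM + 1) from the control mean (colour) for 80 of the 81 members (rows, large subunit, small subunit and paralogs, each by falling FPKM) in the 8 retinas (columns). M833 is lower and M898 higher over most rows, and *Rps27* and *Rps4l* are the rows lower in all 4 *Rbfox2*-/- retinas by the largest amounts.

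Of the 4 tested core genes outside the symbol rule, *Rpsa* and *Gnb2l1* were higher at an unadjusted p under 0.05. This was 50% of a short list, against 6.42% of all genes tested. *Rpsa*, of the small subunit and also known as a laminin receptor, had a log2 fold change of 0.074 (SE 0.030, adjusted p = 0.344, edgeR quasi-likelihood test). *Gnb2l1*, whose product RACK1 binds the small subunit, had 0.083 (SE 0.036, adjusted p = 0.364 in the same test). *Fau*, made as a fusion with a ubiquitin-like protein, had 0.016 (95% interval -0.15 to 0.18). The 4 X-linked members, *Rps4x*, *Rpl10*, *Rpl36a* and *Rpl39*, had log2 fold changes between -0.057 and 0.032.

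The start sites of the members carried the pyrimidine run of the TOP class more often than other genes. RefSeq promoter entries (GRCm38.p6) matched 60 of the 81 members, and 35 of them (58.3%) had, near a listed start, a C followed by at least 4 pyrimidines (on the gene's strand, beginning between 5 bases before and 9 after the start), against 26.5% of all 27025 genes with an entry and 28.7% of the other tested genes. The windows below run from 10 bases before to 20 after the start of 5 members with such a run, in capitals, including *Rps27* and *Rps15a*, and of 2 of the most abundant members without it.
Rps6 (chr4:86857348-86857377, minus strand): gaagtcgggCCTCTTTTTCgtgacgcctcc
Rpl35 (chr2:39005112-39005141, minus strand): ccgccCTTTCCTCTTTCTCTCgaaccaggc
Rplp2 (chr7:141447641-141447670, plus strand): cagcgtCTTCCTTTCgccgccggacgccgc
Rps27 (chr3:90213629-90213658, minus strand): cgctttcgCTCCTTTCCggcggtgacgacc
Rps15a (chr7:118116128-118116157, minus strand): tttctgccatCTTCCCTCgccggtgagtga
Rps15 (chr10:80292421-80292450, plus strand): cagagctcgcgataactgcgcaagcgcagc
Rpl4 (chr9:64173377-64173406, plus strand): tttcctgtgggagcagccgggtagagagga
The first 5 windows carry a run of 8 to 16 pyrimidines, while *Rps15* and *Rpl4* have none at the start listed.

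Both kinds of start had fold changes around 0. The median log2 fold change was 0.0051 over the 35 members with a run and 0.019 over the 25 with an entry but no run. The letters CCGGAAG, on either strand, which the ETS factor GABP is known to bind, stood in the 300 bases around the start of 40.0% of the members with an entry, of 9.93% of all genes and of 16.6% of the other tested genes. ATGGCGGC, which YY1 is known to bind, stood in 6.67%, 2.61% and 4.68%. TATAAA stood in 11.7% of the members, 15.7% of all genes and 9.43% of the other tested genes, and CACGTG in 6 of the 60 members, 8.09% of all genes and 11.0% of the other tested genes, so the order of members and background depended on the background for both. A match of letters is a description of the window and not a site.

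The genes that make, assemble or control ribosomes were read against the 13.3% of all genes tested at an unadjusted p under 0.05 (6.42% higher, 6.87% lower). None of their lists held a gene with an FDR under 0.05 in edgeR's quasi-likelihood test. Of 26 tested genes of small subunit assembly 2 were higher at p under 0.05 (*Bysl* 0.12 and *Emg1* 0.16, log2) and 1 lower (*Nol6* -0.098), and of 26 for the large subunit *Rpf1* was higher (0.11) and *Eif6*, which keeps the large subunit from joining too early, lower (-0.092). Of 15 for RNA polymerase I and its factors, *Polr1d* was higher (0.14). Of 9 translation elongation genes *Eef2k*, the kinase that inhibits elongation factor eEF2, and *Eif5a2* were lower (-0.17 and -0.18), which is 22.2% of a short list and above the background, where small subunit assembly had 11.5% and large subunit assembly 7.69%.

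Among the genes above the ribosomal protein mRNAs in their control, *Mlst8*, a subunit of the mTOR complexes, was higher at p under 0.05 (0.15 log2, 1 of 14 regulators), as was *Max* (0.11, 1 of 9 transcription factors). The lists of snoRNP and nucleolar proteins and of eIF3 subunits had 0 of 10 and 0 of 13 at that threshold. Of 21 other mRNAs with a TOP start, *Gnb2l1* and *Rpsa* were higher and 0 lower, or 9.52%, against 13.3% of all genes. Both are core genes already counted above. Of 9 tested p53 targets, which respond when ribosome assembly is disturbed, *Ccng1* was higher (0.11), and the list's median was -0.046.

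The 77 mitochondrial ribosomal protein genes and the 39 proteasome subunit genes serve as other large complexes. Of the mitochondrial ribosome 5 genes were higher and 2 lower at p under 0.05, or 9.09%, with a median log2 fold change of 0.039, and of the proteasome 2 were higher and 3 lower, or 12.8%, with a median of 0.017, where all genes tested had 13.3%. The cytosolic members had 3 of 81 and a median of 0.012. The mitochondrial score ran from -0.039 to 0.051 in controls and from -0.021 to 0.077 in *Rbfox2*-/- retinas, which overlap.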

How the data were processed

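Retinal RNA of 8 mice was sequenced as poly(A)-selected libraries with paired reads. The authors aligned them to mm10 with STAR and used uniquely mapped reads alone. The deposited counts are raw fragment numbers per gene from HTSeq. The methods name both RefSeq and Ensembl annotation, and versions are not given in the sources used here, apart from CASAVA 1.8.2 in the submitters' processing notes. The deposited table also holds FPKM values, which the authors computed from the counts and gene lengths and which were used for levels per length, as well as a signal adjusted by the authors and columns of their own comparison (fold changes, p-values and FDR), not used here.

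In edgeR 4.0.16 (R 4.3.3), filterByExpr kept 16797 genes, TMM factors scaled the libraries and the quasi-likelihood test compared both groups without covariates, and p-values were Benjamini-Hochberg adjusted over all of them. Alternatives tried were limma-voom (limma 3.58.1), the likelihood ratio test, DESeq2 1.42.0, other scalings, other count filters and libraries left out. Scores, shares and exact permutation tests used Python 3.11.15 with scipy 1.17.1. The 3-count floor covers counting error only, while the 95% intervals come from the quasi-likelihood fit and include the spread between mice. Labels name each mouse, so p-values rest on the spread between 4 mice per group. The fitting script was tested on simulated counts with known changes.

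Shared windows were counted in GENCODE M21 transcripts (GRCm38), 1 transcript per gene, and promoters came from RefSeq (GRCm38.p6). Named genes were members with p under 0.05 or groups that do not overlap, all paralog pairs, the 4 highest and 4 lowest in FPKM, the 4 largest and smallest control variation, core genes outside the symbol rule, list genes past an FDR of 0.05 or, in a list discussed, at the lowest p, and *Rbfox2*. The members with the highest fold changes, those used as examples of shared sequence, pyrimidine starts or X-linkage, the other list genes at p under 0.05 and *Tmtc1* were named after their values were seen. The members and lists were chosen with earlier results of these data known. Some items that these rules cover are not reported here.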

Additional observations from a re-analysis of the deposited data

Results flagged for a closer look

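Of 32 groups of 4 mice checked over the values given by mouse, 2 held a value far from the other 3, where chance flags about 1 group in 20. *Rps4l* in control M894 was at 46.3 CPM, below the other controls at 51.7 to 52.3 CPM. *Rps15a* in *Rbfox2*-/- M893 was at 88.7 CPM, above the other *Rbfox2*-/- retinas at 87.0 to 87.3 CPM. Without M894 the log2 fold change of *Rps4l* was -0.31, and without M893 that of *Rps15a* was still below 0.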

How the results depend on the processing

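Under 18 alternatives the log2 fold changes of *Rps4l*, *Rps27*, *Rpl3l* and *Rps15a* stayed below 0, between -0.32 and -0.17, -0.43 and -0.33, -0.88 and -0.66, and -0.080 and -0.047. The adjusted p of *Rps4l* was 0.015 in DESeq2, which called 457 genes in all against 11 in edgeR's quasi-likelihood test and 164 in its likelihood ratio test, so that members with an FDR under 0.05 came to 1 there and to 0 in the other 17 alternatives, the adjusted p of *Rps4l* ranging up to 0.782. Leaving out each mouse in turn gave 0 to 4 members higher and 2 to 5 lower at p under 0.05, with 5 lower without M833, 4 higher (among them *Rpl13a*, *Rps15* and *Rps3*) without M898 and 2 higher without M909. *Rpl3l* was no longer under the unadjusted threshold without M894, without M901 and M902, or in DESeq2. The median log2 fold change of the members moved by less than the control SD of the score throughout, from -0.019 without M833 to 0.036 without M898, and changed sign. The score difference ranged from -0.019 to 0.029. Leaving out each mouse turned the sign of *Rpl7l1* to *Rpl7*, from -0.031 to 0.032 (0.022 without M909), and of *Rpl22l1* to *Rpl22*, from -0.059 to 0.016. The causes were not tested. No paired analysis was possible because each mouse has a number of its own. *Rpl3l* rests on 12 to 29 counts per library, and over the members the standard error was larger at lower FPKM (Spearman -0.84, a description over genes).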
